A study of Mus musculus with 2 samples.

Results

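The 7 genes described here encode surface proteins through which antigen-presenting cells tune T cells: Cd80, Cd86, Icosl, Cd274, Pdcd1lg2, Cd276 and Havcr2. They were taken by gene symbol, and all 7 were found among the 19505 named genes of the arrays, each with 1 probe set that shares its values with no other gene. A T cell that recognises antigen also reads a second signal from B7 family proteins on the presenting cell. CD80 and CD86 give that signal through CD28 and are also bound by the inhibitory receptor CTLA-4, while ICOSL signals through ICOS, and PD-L1 (Cd274) and PD-L2 (Pdcd1lg2) restrain the T cell through PD-1. The label of the group as ligands holds only in part: Havcr2 encodes TIM-3, itself an inhibitory receptor found on T cells and myeloid cells, and the receptor of B7-H3 (Cd276) is not settled.

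RNA came from mouse macrophages grown out of bone marrow with M-CSF, the growth factor of the macrophage lineage, at 25 ng/mL (given at day 0 and again at day 3, with use from day 5), and was read on whole-transcript arrays. The group named LysM(+) has the genotype LysM (+);MC4RTB/TB and the group named TB/TB has the genotype MC4RTB/TB, so both are homozygous for the TB allele of the melanocortin 4 receptor gene and differ by LysM. As background, such an allele is known as one blocked by a cassette that Cre can remove, and LysM as a promoter that often drives Cre in cells of the myeloid lineage; neither is spelled out in the labels, and the sources used here give no age, sex or number of animals for either culture. The labels give no treatment. Each group had 1 array, so no value below has a replicate error, no test was possible, and every difference describes these 2 arrays only.

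All values are deposited RMA values, read as log2, and every difference is LysM(+) minus TB/TB on that scale. A gene is said to be past 1.5-fold when its arrays differ by at least that much and its brighter value reaches 6.12, the median of all named probe sets, which serves as a brightness floor. The 23 background control probe sets lay between 3.09 and 6.81, so a value in that range is not clearly above background. Probe sets differ in how strongly they respond, so the level of one gene is not compared with that of another. All 8 measured macrophage markers reached the floor on both arrays, between 12.41 and 19.04, and none was past 1.5-fold (0 of 8), though Mertk passed it, lower in LysM(+), with quantile normalization or loess. Among the lists used here, cell division had the largest median difference, 3.52: Mki67, Top2a, Cdk1, Ccna2, Ccnb2, Plk1 and Ube2c were all past 1.5-fold and brighter in LysM(+). Of these, Cdk1 in TB/TB was under the floor at 5.22, and Ccna2 and Top2a there, at 6.40 and 6.75, lay within the background control range, so their folds are not exact.

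Of the 7 genes, 4 were past 1.5-fold: Havcr2 and Cd276 were higher in LysM(+), and Cd274 and Pdcd1lg2, the ligand genes of PD-1, were lower. Among the 10137 genes at or above the floor, 16.1% were past 1.5-fold in either direction, 10.9% being higher and 5.16% lower in LysM(+). The median difference of the 7 genes was -0.04, beside 0.07 for all genes at the floor, since 3 genes were higher by any amount and 4 lower. The median size of the difference, regardless of sign, was 0.60 for the 7 genes and 0.26 for the genes at the floor. Since the 7 genes were chosen with earlier results of these data known, these counts and medians are description only. Of the 4 genes past 1.5-fold, Cd274 and Cd276 passed by only 0.04 and 0.01 on the log2 scale. The genes that bind CD28, CTLA-4 or ICOS (Cd80, Cd86 and Icosl) all differed by less than 1.5-fold.

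**Figure D1:**
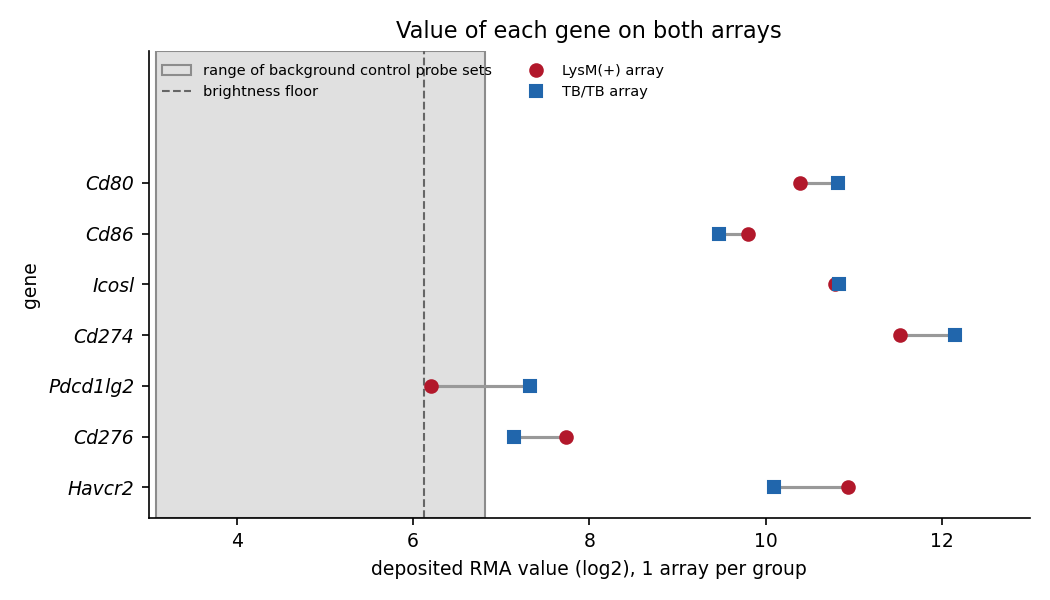
Deposited RMA value (log2, horizontal axis) of each of the 7 genes (vertical axis) on the LysM(+) array (circles) and the TB/TB array (squares), 1 array per group, with the brightness floor at 6.12 (dashed) and the range of the background controls (grey). Pdcd1lg2 has the widest gap and its LysM(+) value of 6.20 lies in the grey range; Icosl has the narrowest.

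The sequences shown are the 250 bases before the transcription start of the 4 genes past 1.5-fold, where a factor that acts on the promoter would often bind. They are RefSeq promoters of build GRCm38.p6, read 5′ to 3′ along the gene. Capitals mark the only match to the 3 motifs described.
Cd274, chr19:29367188-29367437, plus strand: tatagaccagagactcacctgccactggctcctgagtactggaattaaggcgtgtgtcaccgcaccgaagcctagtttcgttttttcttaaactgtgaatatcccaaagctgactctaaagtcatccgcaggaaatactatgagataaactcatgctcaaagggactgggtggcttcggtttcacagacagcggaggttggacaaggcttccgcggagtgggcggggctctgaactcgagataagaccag
Pdcd1lg2, chr19:29410669-29410918, plus strand: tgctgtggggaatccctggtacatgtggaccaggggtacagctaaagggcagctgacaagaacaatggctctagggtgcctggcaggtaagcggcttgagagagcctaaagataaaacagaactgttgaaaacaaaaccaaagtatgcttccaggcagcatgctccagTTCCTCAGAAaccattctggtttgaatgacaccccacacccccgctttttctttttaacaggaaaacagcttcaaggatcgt
Cd276, chr9:58555034-58555283, minus strand: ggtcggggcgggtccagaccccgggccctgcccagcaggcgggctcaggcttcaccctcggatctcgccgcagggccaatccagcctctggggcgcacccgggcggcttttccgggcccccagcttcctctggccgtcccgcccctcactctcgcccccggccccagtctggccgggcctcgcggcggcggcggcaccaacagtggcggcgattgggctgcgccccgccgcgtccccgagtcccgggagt
Havcr2, chr11:46454681-46454930, plus strand: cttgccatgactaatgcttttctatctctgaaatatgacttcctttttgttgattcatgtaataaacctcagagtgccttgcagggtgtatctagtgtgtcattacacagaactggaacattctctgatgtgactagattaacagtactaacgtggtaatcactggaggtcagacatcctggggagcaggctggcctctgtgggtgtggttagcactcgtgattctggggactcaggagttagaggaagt

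The 3 motifs were searched on both strands. They were the STAT6 spacing (TTC and GAA with 4 bases between them), an ISRE core bound by interferon regulatory factors (GAAA, 2 unspecified bases, GAAA) and a κB form (GGGA, 3 unspecified bases, TCC). Of 32851 promoter entries of the same length, 5.85% held the STAT6 spacing, 2.98% the ISRE core and 3.86% the κB form. Pdcd1lg2 held the STAT6 spacing from base 82 to base 73 before the start, as TTCCTCAGAA. None of these letters stood in the windows of Cd274, Cd276, Havcr2, Cd80 or Icosl (0 matches). The windows also differ in composition: Cd276 had 77.6% G and C with 29 CpG pairs and Icosl 68.8% with 23, while Cd274 had 50.4% with 11 and Pdcd1lg2 48.4%, Cd80 52.8% and Havcr2 44.8% with 3, 3 and 2, beside a median of 52.4% G and C over all entries. A motif match here is a match of letters, and its absence says only that these letters are not in this window. The κB form was narrow, and other κB-like letters were not searched. GGGGAATCCC near the left end of the Pdcd1lg2 window is such a sequence and is not marked.

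Cd274 (probe set TC1900000441.mm.2, chromosome 19), which encodes PD-L1, had 11.53 in LysM(+) and 12.16 in TB/TB. The LysM(+) array was lower by a difference of -0.62, or 1.54-fold. PD-L1 is known to be induced by interferon gamma in many cells, and it is the more widely expressed ligand of PD-1. Of the 10137 genes at the floor, 445 had a more negative difference. Cd274 lay 0.04 past the 1.5-fold limit of 0.58 on the log2 scale, and among genes with a brighter value of 12 or more, 10.2% were past that limit in either direction.

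Pdcd1lg2 (probe set TC1900000442.mm.2, chromosome 19), which encodes PD-L2, had a value of 6.20 in LysM(+) and 7.33 in TB/TB. Its difference of -1.13, or 2.19-fold lower in LysM(+), was the largest in size among the 7 genes, and only 45 of the 10137 genes at the floor had a more negative one. PD-L2 is more restricted than PD-L1 and is known as a gene that interleukin 4 induces in macrophages through STAT6. Its LysM(+) value lay within the background control range, so the fold is not exact. Of the genes with a brighter value from 6.12 to below 8, where Pdcd1lg2 lies, 18.8% were past 1.5-fold.

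Both PD-1 ligand genes were thus lower on the LysM(+) array. Cd274 and Pdcd1lg2 are neighbours among the measured genes of chromosome 19, with gene starts 48.8 kb apart. A gene start here is the start coordinate of the RefSeq gene entry, which can differ from the transcription start used for the promoter windows. The genes around Cd274 and Pdcd1lg2 did not share a direction. Plgrkt, which encodes a plasminogen receptor and lies 13.5 kb before Cd274, differed by 0.06, and Insl6 and Rln1, of the relaxin family, by 0.07 and 0.06. Jak2, the kinase that carries interferon gamma signals, differed by -0.13. On the other side Ric1 differed by -0.33, Ermp1 by 0.87 (1.82-fold higher in LysM(+)), and Mlana, under the floor on both arrays like Rln1, by 0.11. Of the 8 measured genes around Cd274 (the 4 nearest on each side, a rule used for each of the 7 genes), 6 reached the floor, 1 was past 1.5-fold lower, which is Pdcd1lg2 itself, and 1 higher.

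**Figure D2:**
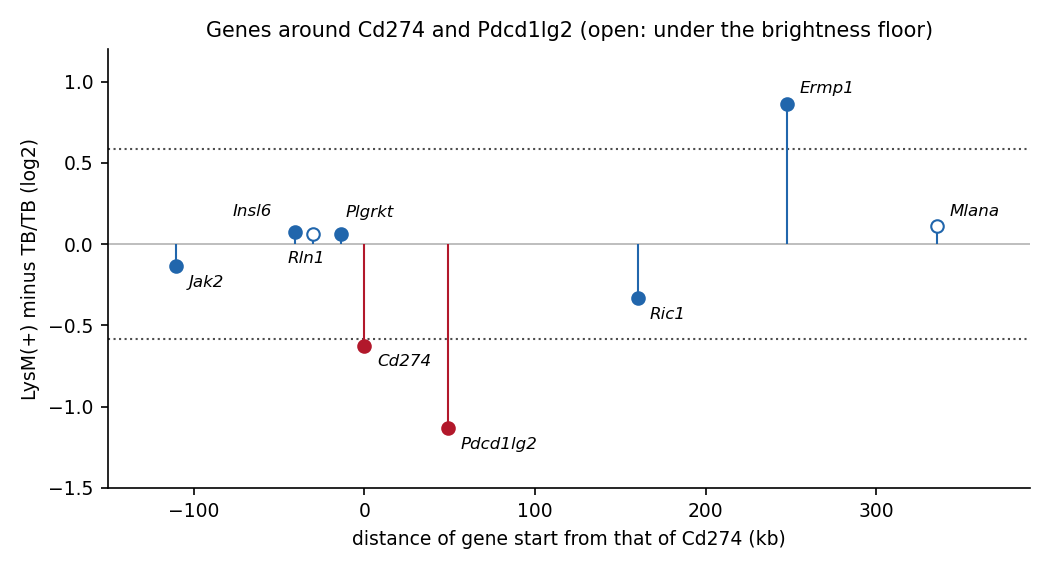
Difference between the arrays (log2, vertical axis) of Cd274, Pdcd1lg2 and the other measured genes nearest Cd274 against the distance of their gene starts from that of Cd274 in kb (horizontal axis); dotted lines mark 1.5-fold and open circles genes under the floor on both arrays. Cd274 at -0.62 and Pdcd1lg2 at -1.13 are the only genes below the lower line, while Ermp1 at 0.87 lies above the upper line.

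Cd80 (probe set TC1600000553.mm.2, chromosome 16) had a value of 10.39 in LysM(+) and 10.82 in TB/TB. That is a difference of -0.43, or 1.35-fold lower in LysM(+), which did not pass 1.5-fold; 1004 genes at the floor had a more negative difference. CD80 binds CTLA-4 more tightly than CD28 and also binds PD-L1 on the same membrane. Cd86 (probe set TC1600001580.mm.2, chromosome 16), whose product is the CD28 ligand usually present on resting presenting cells, had 9.80 and 9.48. The LysM(+) array was higher by 0.32, short of 1.5-fold, and 2583 genes at the floor had a more positive difference. The ratio of the Cd86 value to the Cd80 value was therefore 1.68-fold higher in LysM(+), a shift of 0.75 on the log2 scale that shows unequal differences of the pair. How often other gene pairs shift by as much was not counted, so this ratio is not set against the 1.5-fold limit for single genes. Cd80 and Cd86 lie on the same chromosome, and no gene among the 8 around each was past 1.5-fold (0 genes). Cox17, near Cd80, fell just short of it at 1.4996-fold, with 12.34 in LysM(+) and 11.76 in TB/TB. Only 5 of the genes around Cd80 and 2 of those around Cd86 reached the floor. Under the floor, Popdc2, Maats1 and Slc15a2 differed by -0.79, 0.61 and 0.78. In the brightness range from 8 to below 10, which holds Cd86, 17.8% of genes were past 1.5-fold, and from 10 to below 12, which holds Cd80, Icosl and Havcr2, 14.9% were.

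Icosl (probe set TC1000000778.mm.2, chromosome 10), whose product supports follicular and regulatory T cells through ICOS, had 10.79 in LysM(+) and 10.83 in TB/TB. The arrays were closest for this gene, with a difference of -0.04, or 1.03-fold. Of the genes at the floor, 91.8% differed by at least as much.

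Cd276 (probe set TC0900002396.mm.2, chromosome 9) had 7.74 in LysM(+) and 7.14 in TB/TB, both above the background control range. The LysM(+) array was higher by 0.60, or 1.51-fold, which is 0.01 past the limit on the log2 scale. B7-H3 is expressed on many non-lymphoid cells and is studied mainly as an inhibitor of T cells. A more positive difference was found for 1063 of the genes at the floor. Cd276 was no longer past 1.5-fold after loess correction of the difference for brightness, where it was 0.57. Among the 8 measured genes around it, 5 of which reached the floor, Neo1 was 1.57-fold higher in LysM(+), with a TB/TB value of 6.57 in the background control range.

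Havcr2 (probe set TC1100000475.mm.2, chromosome 11) had 10.93 in LysM(+) and 10.09 in TB/TB. It was higher in LysM(+) by 0.84, or 1.79-fold, the largest positive difference of the 7 genes, and 507 of the genes at the floor exceeded it. On myeloid cells TIM-3 is known to dampen responses to nucleic acids and to other stimuli. The nearest measured gene, Med7, differed by 0.25, and of the 8 around Havcr2 only Med7 and Cyfip2 reached the floor, neither past 1.5-fold. Timd2, another TIM family gene and one of those 8, was under the floor on both arrays at 5.19 and 5.22.

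**Figure D3:**
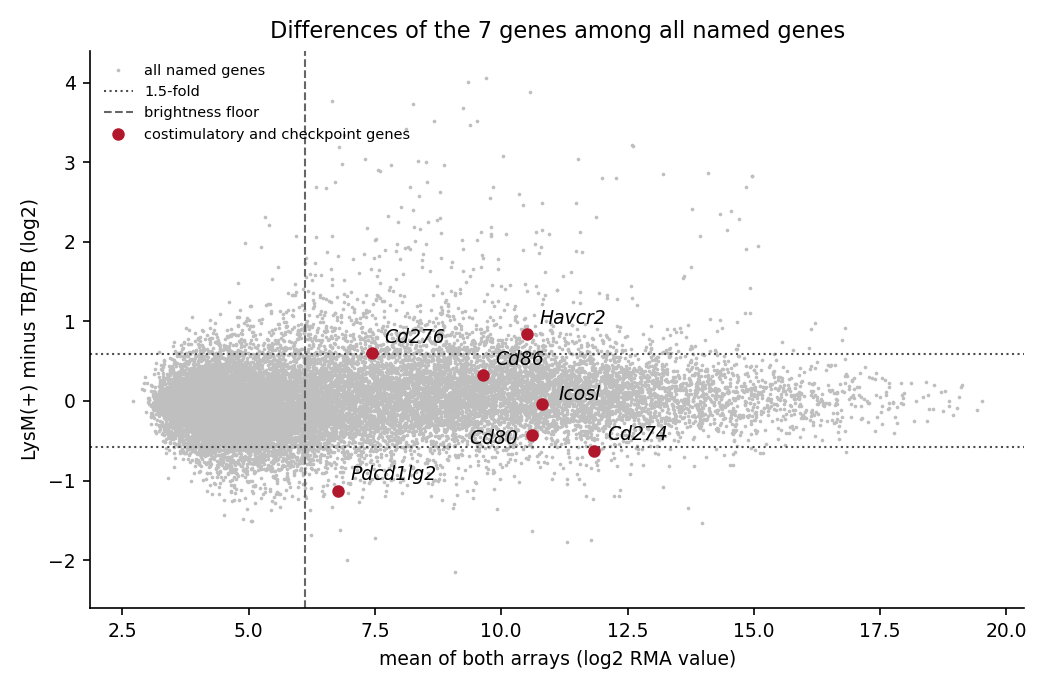
Difference between the arrays (log2, vertical axis) against the mean of both arrays (log2, horizontal axis) for all 19505 named genes (grey) and the 7 genes (red), with 1.5-fold marked by dotted lines and the brightness floor, which the counts apply to the brighter value, by a dashed line. Havcr2 and Cd276 lie above the upper dotted line, Cd274 and Pdcd1lg2 below the lower one, and Cd80, Cd86 and Icosl between them.

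Among 8 receptors and binding partners of these proteins, Cd28 was the one past 1.5-fold. Of the 8, 6 reached the floor, 1 was lower past 1.5-fold and 0 higher, a share near the 16.1% of all genes at the floor, with a median difference of -0.30. Cd28, the receptor of CD80 and CD86, had 12.91 in LysM(+) and 13.73 in TB/TB, or 1.76-fold lower. Pdcd1, which encodes PD-1, had 5.05 and 5.52, and Ctla4 had 5.05 and 4.56; both were under the floor on both arrays. Icos had 6.45 and 6.69, within the background control range. Lgals9, which encodes galectin-9, and Ceacam1, both described as TIM-3 ligand genes, differed by -0.32 and -0.29, and Hmgb1, a nuclear protein that TIM-3 also binds, by 0.01. Rgmb, whose product binds PD-L2, differed by -0.36.

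Of 11 other costimulatory ligands measured, 6 reached the floor, and only Cd24a was past 1.5-fold, with 8.002 and 7.04, or 1.95-fold higher in LysM(+), a share again near the 16.1% of all genes. Cd40, counted in this list although it encodes a receptor that licenses presenting cells, differed by -0.12. The adhesion ligand gene Icam1 differed by 0.19. The list had a median difference of -0.03, whose sign turned with quantile normalization or loess (up to 0.01). Of 15 other inhibitory ligands and receptors, 11 reached the floor, 1 was past 1.5-fold in each direction, also near that share, and the median difference was -0.23. Nectin2, an adhesion molecule of the pathway of TIGIT and CD226, was 1.74-fold higher in LysM(+) at 7.63 and 6.83, and Tnfrsf14, the partner of BTLA, was 1.59-fold lower at 9.87 and 10.54. Vsir, which encodes the B7-related checkpoint protein VISTA, was nearly equal with 15.34 and 15.35. Vtcn1, the B7-H4 gene, and Cd200 differed by -0.85 and -0.64 but were under the floor on both arrays. Of the 6 other B7, butyrophilin and TIM genes, 2 reached the floor and none was past 1.5-fold (0 genes), with a median difference of -0.18.

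**Figure D4:**
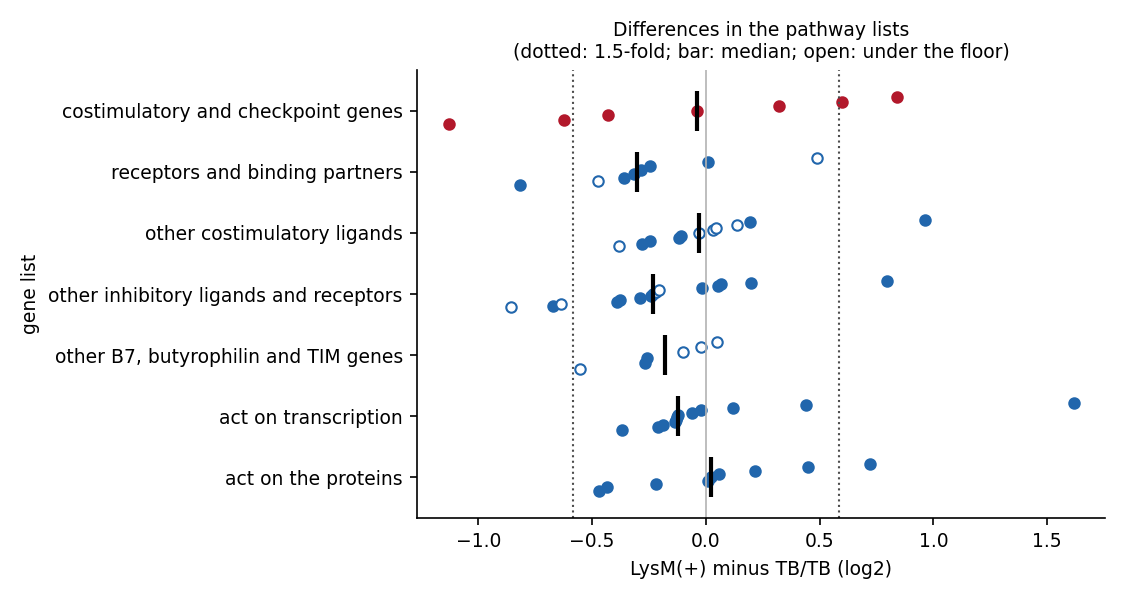
Difference between the arrays (log2, horizontal axis) of every measured gene in 7 lists (vertical axis), with the 7 costimulatory and checkpoint genes in red, other lists in blue, the list median as a bar, 1.5-fold as dotted lines and genes under the floor on both arrays as open circles. The red points run from -1.13 to 0.84, while most genes of the other lists lie between the dotted lines; the point farthest right is Myc at 1.62.

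Genes whose products are known to act on the expression of the 7 genes formed a pair of lists, each with 1 gene past 1.5-fold, beside 16.1% of all genes at the floor. Of 14 that act on transcription, 12 were measured, all 12 reached the floor, and the median difference was -0.12. Myc, a growth regulator reported to act on PD-L1 transcription, was past the limit with 12.18 and 10.57, or 3.07-fold higher in LysM(+). The interferon gamma receptor genes Ifngr1 and Ifngr2 differed by -0.02 and -0.06, Irf1 by -0.19 and Stat6, the interleukin 4 signal carrier, by -0.13. Of 10 that act on the proteins, 9 were measured, with a median difference of 0.02, whose sign turned with quantile normalization or loess (down to -0.05). Cops5, a deubiquitinating enzyme gene, was 1.65-fold higher in LysM(+) at 10.86 and 10.14. Cmtm6, which keeps PD-L1 at the cell surface, differed by -0.43, and Marchf1, a ubiquitin ligase that removes CD86 from the surface, by -0.47.

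Markers of other cells give the cellular context, and in bulk RNA fewer cells of a type and less RNA per cell cannot be told apart. Dendritic cells carry many of these ligands. Of 12 dendritic cell markers, 4 reached the floor and 0 were past 1.5-fold, and the level summed over the list on the linear scale was 9.89 in LysM(+) and 9.95 in TB/TB as log2. The lineage markers Flt3, Zbtb46, Xcr1 and Clec9a lay between 3.77 and 4.15, within the background control range. By any amount, 4 of the 12 were higher in LysM(+) and 8 lower. Dpp4 and Irf4, under the floor on both arrays, differed by 0.86 and 0.57. Ccr7 (8.76 and 8.82) and Itgax (7.55 and 7.67), which other leukocytes also express, were above that range and make up most of the sum. Of 9 T cell markers 2 reached the floor (Cd4 and Cd2), of 7 B cell markers 2, and of 5 NK cell markers 0, none of them past 1.5-fold (0 genes). Only Cd4 was above the background control range (9.97 in LysM(+) and 10.19 in TB/TB), while Cd2, Cd22 and Blk lay within it. Monocyte and neutrophil markers had median differences of 0.48 and 0.40. All 5 measured monocyte markers had higher values in LysM(+), and 1 of them (Cx3cr1) was past 1.5-fold. Treml4 passed it as well with quantile normalization or loess, but lay within the background control range on both arrays (6.18 and 5.61). The summed level of the monocyte markers, mostly that of Ly6c2, was 12.91 in LysM(+) and 12.48 in TB/TB. Of 7 neutrophil markers, 6 had higher values and 2 (Ltf and Elane) were past 1.5-fold, with a summed level, mostly that of Ngp, of 16.66 and 16.27. Elane in TB/TB, at 6.46, lay within the background control range, so its fold is not exact. Mpo differed by -0.30, and Camp was under the floor on both arrays. Of all genes at the floor, 10.9% were past 1.5-fold higher in LysM(+). Of 5 fibroblast markers, 4 reached the floor and Col1a2 was past 1.5-fold, with 8.54 in LysM(+) and 9.14 in TB/TB. Dcn differed by -0.38, while Col1a1 and Pdgfrb differed by 0.06 and 0.37, with Pdgfrb within the background control range on both arrays. The fibroblast list had a median difference of -0.03, whose sign turned in 1 alternative, and a summed level of 10.09 in LysM(+) and 10.36 in TB/TB. The part of these cells, and of the cell division difference, in the values of Havcr2, Cd276, Cd274 and Pdcd1lg2 was not tested.

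**Figure D5:**
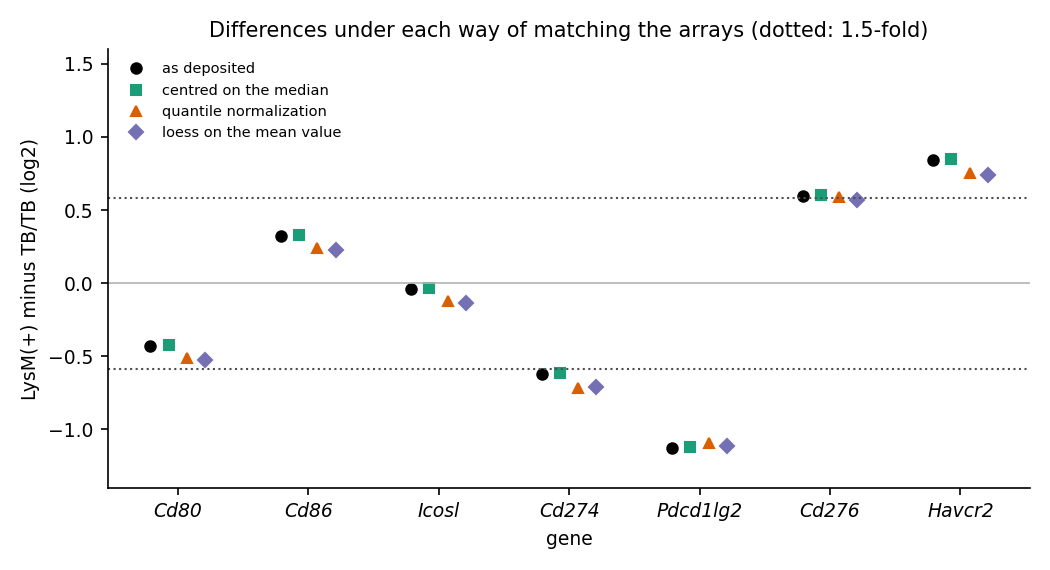
Difference between the arrays (log2, vertical axis) of each of the 7 genes (horizontal axis) with the values as deposited and after 3 ways of matching the arrays, with 1.5-fold as dotted lines. Every gene keeps its sign, Cd274, Pdcd1lg2 and Havcr2 stay past 1.5-fold, and Cd276 falls to 0.57 with loess.

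The sign of all 7 differences was the same after centring, quantile normalization or loess of the arrays. Havcr2 ranged from 0.74 to 0.85 over these settings, Cd274 from -0.71 to -0.62 and Pdcd1lg2 from -1.13 to -1.10. Cd80 ranged from -0.53 to -0.42, Cd86 from 0.22 to 0.33 and Icosl from -0.13 to -0.03, so none of these genes passed 1.5-fold under them (0 of 3).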

How the data were processed

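Total RNA of 2 cultures, 1 per genotype, was read on whole-transcript arrays. The deposited table holds 1 log2 value for each probe set and array. Per the submitters' processing notes, the authors used RMA (background correction, normalization between arrays, summary of probes) and Affymetrix Expression Console; the sources used here give no version. The log base was taken from the method's name. Values ran from 2.57 to 19.5, high for RMA, so a further scaling is possible, and folds depend on this reading while signs do not. Detection calls and scanner intensities were not used here, and precision is limited by having 1 array a group.

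Of 28846 probe sets, 19572 had 1 gene symbol, 0 several and 9274 (controls included) none. Symbols were updated by Entrez ID through the RefSeq table of GRCm38.p6 (19572 matched), used also for gene order, and probe sets of a gene were averaged. Promoters came from RefSeq for 6 of the 7 genes, with the 50 bases after the start left out; 1 further motif searched is not reported here. The 7 genes and all lists were chosen with earlier results of these data known. All 7 genes are named; the rule for each other list was those past 1.5-fold and up to 4 for their role; further receptors, neighbours and markers were named after their values were seen. No test was run. The counting was tested on simulated data. Alternatives were centring, quantile normalization, loess (span 0.4), the brightest probe set, other floors, and a higher or lower fold limit, run with Python 3.11.15 and statsmodels 0.14.6.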

Additional observations from a re-analysis of the deposited data

How the results depend on the processing

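With a 2-fold limit, Cd274 (-0.62), Cd276 (0.60) and Havcr2 (0.84) were no longer past it. That left 0 of the 7 genes higher and 1 lower, beside 329 genes higher and 87 lower of the 10137 at the floor. With the limit lowered from 0.58 to 0.32 on the log2 scale, Cd80 (-0.43) passed as well. That made 2 of the 7 genes higher and 3 lower, beside 2581 genes higher and 1523 lower of the 10137 at the floor. Cd86, at 0.3215, lay just short of that lower limit of 0.3219 and was not counted. With no floor, 1075 genes were lower instead of 523, since the floor leaves out dim genes. With loess, Cd276 (0.57) did not pass, leaving 1 gene higher. The brightest probe set moved no value of the 7 genes, which have 1 probe set each. No paired analysis was possible because each group has 1 array, and for the same reason no array could be left out. A floor at the highest background control or on both arrays changed no call of the 7 genes. Signal near background limits Pdcd1lg2 in LysM(+).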

Other observations

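Cd28 was well above the background controls on both arrays, at 12.91 in LysM(+) and 13.73 in TB/TB, although the genes of the T cell receptor complex were not: Cd3d had 4.71 and 5.03, Cd3e 3.66 and 4.11, and Cd3g 4.20 and 4.27, all within the background control range. Cd28 was 1.76-fold lower in LysM(+). It was singled out here after its values were seen, and the source of its signal was not tested.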
